A study of Mus musculus with 6 samples.

Results

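The 10 genes described here make, break down, carry and read retinoic acid in the proximal incisor of the mouse: *Aldh1a1*, *Aldh1a2*, *Aldh1a3*, *Cyp26a1*, *Cyp26b1*, *Rara*, *Rarb*, *Rarg*, *Crabp1* and *Crabp2*. They were taken by gene name from a table of 19270 genes, and all 10 were found. The RNA came from the proximal mesenchymal tissue of 3 control samples and 3 *Arid1b* mutant ones, collected 4 days after tamoxifen from mice of 1 month of age. The mutants are Gli1-CreER;Arid1bfl/fl, in which tamoxifen switches on a recombinase in GLI1+ cells of both mesenchymal and epithelial lineages, so only those cells and their progeny lose *Arid1b*. The controls are labelled wild type, whereas the study's methods describe its control mice as carrying the floxed *Arid1b* alleles and receiving the same tamoxifen, with no recombinase named. ARID1B is a subunit of the BAF chromatin remodeling complex, and the comparison asks which transcripts differ once it is lost.

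Retinoic acid is made from vitamin A (retinol) in a pair of oxidation steps: retinol becomes retinal, and the ALDH1A enzymes turn retinal into retinoic acid. CYP26 enzymes degrade it, CRABP proteins bind it in the cytosol, and the receptors RARA, RARB and RARG pair with an RXR partner on DNA to switch target genes. Craniofacial mesenchyme and the tooth germ are classical sites of this pathway, and both lack and excess of vitamin A have long been known to disturb the continuously growing rodent incisor. Some pathway genes, *Cyp26a1* and *Rarb* among them, are themselves targets of the receptors.

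The values are the authors' mean of the 3 libraries of each group, on a normalized scale whose upper quartile over genes lies between 44.57 and 44.58 in all 6 libraries. Values per gene and mouse were not analysed here, so a mean carries no SD, no difference between the groups was tested, and nothing below shows that a difference exceeds the spread between mice. The depth, inferred from the lowest values, was 37123643 to 49594469 reads per library. A 95% counting interval (exact, Clopper-Pearson) is given with some ratios, and it covers counting error only: it excluded a ratio of 1 for 53.6% of all 19270 genes and for 8 of the 10 members, so it is no sign of an effect of genotype. In bulk tissue, fewer cells of a type and less RNA per cell cannot be told apart. *Arid1b* itself averaged 97.6 in control tissue and 38.0 in mutant tissue. In the controls, *Ddx3y* lay at the lowest mean of the group, against 65.3 in the mutants, and *Xist* was at 3368 against 813.8. The mutant group thus held signal of both genes, and group means do not show how it divides between mice. The make-up by sex differed between the groups along with genotype, so the parts of sex and genotype cannot be told apart.

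Of the 10 members, 1 differed between the group means by more than 1.5-fold: *Aldh1a2*, which was higher in the mutants. The study's methods use that fold change together with an FDR limit, which was not applied here. Among all genes, 13.2% lay past that fold in either direction and 7.37% were higher by it, so 1 of 10 is close to the background. Past a fold of 2 were 5.17% of all genes and, again, *Aldh1a2* alone of the members. The log2 ratio of mutant to control was above 0 for 7 members and below 0 for 3, with a median of 0.08, where 50.5% of all genes were higher and the median was 0.0022. With libraries scaled to an equal total signal, 63.7% of all genes and the same count of 7 members were higher. *Rarb*, *Rarg* and *Crabp1* were the 3 on the lower side, at -0.20, -0.23 and -0.28. When ratios were centred on the dental mesenchyme markers, an alternative chosen after seeing the data, these became 0.015, -0.0069 and -0.06.

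**Figure D1:**
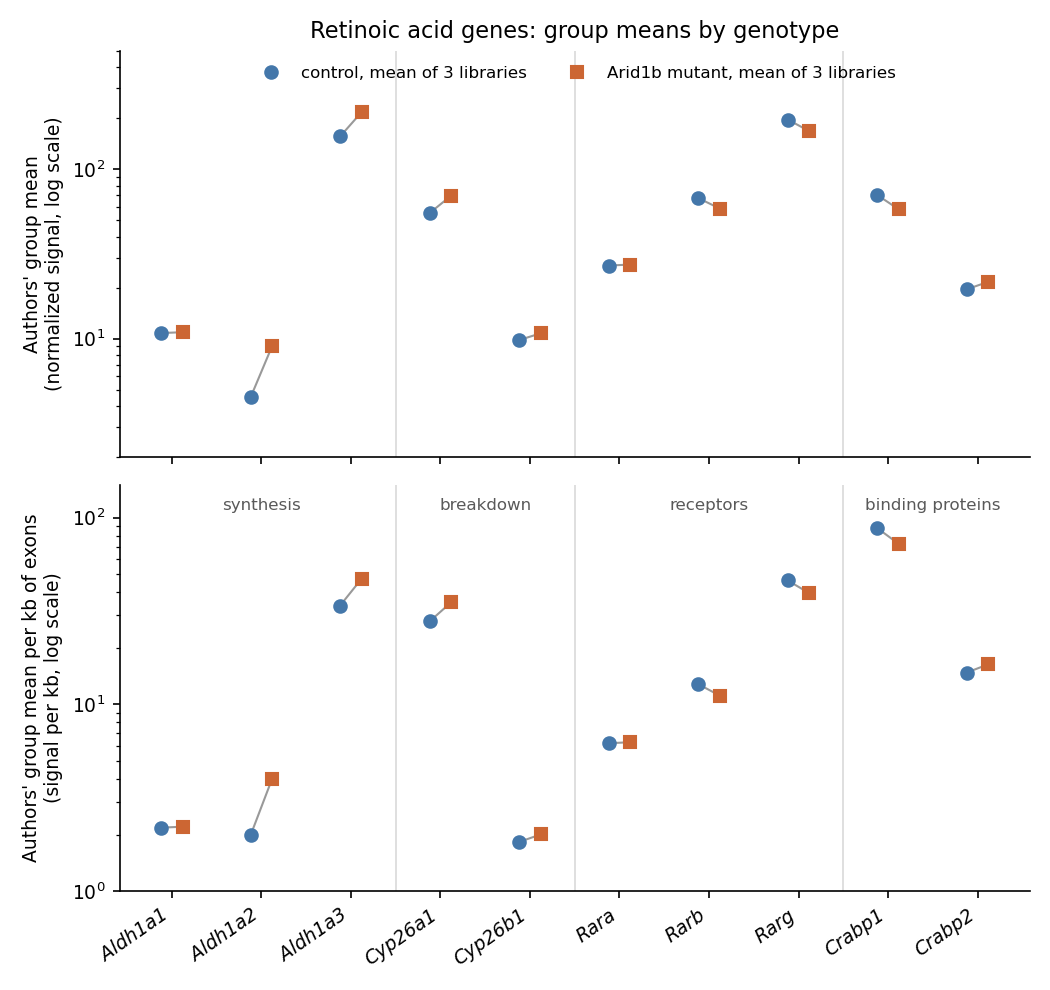
Authors' group means of the 10 members on log axes, as deposited (upper panel, normalized signal) and divided by exon length in kilobases (lower panel), with circles for the controls and squares for the mutants, each the mean of 3 libraries with no error available. *Aldh1a2* shows the widest gap, from 4.51 to 9.04 in the upper panel, while *Aldh1a1* and *Rara* are nearly level.

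*Aldh1a3* (chromosome 7, 66390890 to 66427517 on GRCm38, minus strand) carried most of the signal of the 3 enzymes that form retinoic acid. Its mean was 156.1 in the controls and 217.4 in the mutants, a ratio of 1.39 and a difference of 61.3 signal units. That difference was larger than the whole control mean of *Aldh1a1* and *Aldh1a2* together. Among the 2057 genes with an average of 100 or more over both groups, 1.94% lay past 1.5-fold, and 3.16% were at least as far from a ratio of 1 as *Aldh1a3*. By level, *Aldh1a3* stood above 94.1% of all genes in the controls and above 96.4% in the mutants.

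*Aldh1a2* (chromosome 9, 71215789 to 71296243, plus strand), the main enzyme of the early embryo, was low in both groups. The control mean of 4.51 and the mutant mean of 9.04 correspond to about 521 and 1193 inferred reads over the libraries of each group. The ratio was 2.00, with a counting interval of 1.81 to 2.23, and *Aldh1a2* ranked 576 of 19270 genes by log2 ratio. Large ratios are more common at such levels than at higher ones: 13% of the 4433 genes with an average of 1 to 10 lay past 1.5-fold, against 3.34% of those from 10 to 100, and 4.38% of the former were at least as far from 1 as *Aldh1a2*.

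*Aldh1a1* (chromosome 19, 20492715 to 20643465, plus strand), which in adult tissues forms retinoic acid and clears retinal, was nearly level between the group means. Control tissue averaged 10.8 and mutant tissue 10.9, and its counting interval of 0.938 to 1.09 includes a ratio of 1. Of its distinct 50-base stretches, 3.06% also occur in *Aldh1a7*, a near copy at 2.06 in control and 1.79 in mutant tissue, so a few of its reads could belong to either gene. Summed over the 3 enzymes and scaled by exon length, the signal per kilobase was 38.0 in the controls and 53.3 in the mutants. *Aldh1a3* made up 89.0% of that sum in control tissue and 88.4% in mutant tissue, and the share of *Aldh1a2* was 5.24% against 7.49%.

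*Cyp26a1* (chromosome 19, 37697798 to 37701536, plus strand), the enzyme that many tissues induce when retinoic acid is plentiful, averaged 55.2 in control and 69.8 in mutant tissue. Its ratio was 1.27, short of 1.5-fold. A difference of more than 25% between the means, as the larger over the smaller, was found for 26.5% of all genes and for 3 members: *Aldh1a2*, *Aldh1a3* and *Cyp26a1*. In the band of averages from 10 to 100, 9.79% of the 8254 genes lay past that mark, and 8.94% were at least as far from 1 as *Cyp26a1*. *Cyp26b1* (chromosome 6, 84571414 to 84593908, minus strand), the form known for shielding limb and craniofacial tissue from retinoic acid, was at 9.82 and 10.8, a ratio of 1.10. Per kilobase of exon, *Cyp26a1* exceeded *Cyp26b1* 15.2-fold in the controls and 17.5-fold in the mutants.

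The pair of members with the best known retinoic acid response elements lay on opposite sides of a ratio of 1. Such an element is a direct repeat of a 6-base half-site with 5 bases between the copies, and the half-site was allowed to read AGGTCA or AGTTCA, and likewise GGGTCA or GGTTCA, when searched on both strands of 32851 RefSeq promoter windows (GRCm38.p6; 250 bases before to 50 after each gene start). Only 32 windows, or 0.0974%, held the repeat. These included the windows of *Cyp26a1* and *Rarb*, and the other 11 windows of the members did not hold it. The 13 windows belong to 8 members, and *Aldh1a3* and *Crabp2* have none in the set. Both elements are shown because the members that carry them differ in their ratio, and the capitals mark the repeat as it reads on the strand of the gene.
Rarb, chr14:16575506-16575535, minus strand: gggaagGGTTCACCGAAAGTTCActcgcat
Cyp26a1, chr19:37697558-37697797, plus strand: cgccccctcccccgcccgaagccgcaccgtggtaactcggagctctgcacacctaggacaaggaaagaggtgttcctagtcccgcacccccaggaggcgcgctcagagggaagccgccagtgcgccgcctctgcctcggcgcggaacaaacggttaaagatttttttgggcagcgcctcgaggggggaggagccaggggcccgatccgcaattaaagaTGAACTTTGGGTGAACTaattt

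In *Rarb* the repeat runs with the gene as GGTTCA and AGTTCA around the spacer CCGAA, and its last base lies 37 bases before the start of the RefSeq transcript. In GENCODE vM21 all 30 bases printed for *Rarb* lie in an annotated *Rarb* exon, whereas the *Cyp26a1* stretch holds 0 exonic bases. Read on the opposite strand, the *Cyp26a1* repeat is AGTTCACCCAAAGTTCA, with its nearest base 16 bases before the start. The 2 elements share the second half-site AGTTCA. With this element in its window, *Cyp26a1* was higher in the mutants by a log2 ratio of 0.34, whereas the log2 ratio of *Rarb* was -0.20. The *Rarb* window lies inside the annotated gene, which has 7 transcripts and, on the minus strand, begins at 16819156. The *Rarb* ratio is for the gene as a whole and does not separate transcripts by their start. Centred on the dental mesenchyme markers, these were 0.56 and 0.015, so the opposite signs depend on the reference. An overlap of exons, given below, also makes the *Rarb* value uncertain. The same half-sites spaced by 2 bases were found in 0.268% of all windows and spaced by 1 base in 0.222%, and in no window of a member. A match is a description of the letters, and receptor binding at these windows was not analysed here.

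*Rarg* (chromosome 15, 102234938 to 102257517, minus strand) was the most abundant of the retinoic acid receptors, and is best known from skeletal and skin tissue. Its mean was 196.2 in the controls and 167.7 in the mutants, a ratio of 0.855. Among genes with an average of 100 or more, 15.7% were at least as far from 1. *Rarb* (chromosome 14, 16430839 to 16819156, minus strand) had means of 67.5 and 58.6, a ratio of 0.868, and 18.8% of the genes in the band of 10 to 100 were at least as far from 1. The *Rarb* value is uncertain because 38.4% of its exon bases lie over exons of *Top2b* and Gm48162 on the opposite strand. *Top2b* was at 321.6 in control and 322.8 in mutant tissue. Whether reads were counted by strand is not given in the sources used here.

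*Rara* (chromosome 11, 98927818 to 98974942, plus strand), the broadly expressed receptor, was nearly level, at 27.0 in the controls and 27.4 in the mutants. Its counting interval of 0.966 to 1.06 includes a ratio of 1, and 87.1% of the genes in its band were at least as far from 1. Per kilobase of exon, the order was *Rarg*, *Rarb*, *Rara* in both groups. *Rarg* made up 70.8% of the receptor signal per kilobase in control tissue and 69.3% in mutant tissue, and *Rara* 9.51% and 11.1%. The receptor sum per kilobase was 65.1 in the controls and 56.8 in the mutants.

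*Crabp1* (chromosome 9, 54764748 to 54773110, plus strand), a marker of neural crest mesenchyme that binds retinoic acid in the cytosol, had the lowest ratio of the members. Its mean was 70.4 in the controls and 57.9 in the mutants, a ratio of 0.823, and 11.8% of the genes in its band were at least as far from 1. *Crabp2* (chromosome 3, 87948666 to 87953376, plus strand), which hands retinoic acid to the receptors, was slightly on the other side, at 19.6 and 21.7, a ratio of 1.11. Per kilobase, *Crabp1* exceeded *Crabp2* 5.93-fold in the controls and 4.40-fold in the mutants. No 50-base stretch of a member occurs in another member, so the members do not share reads of that length with each other.

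**Figure D2:**
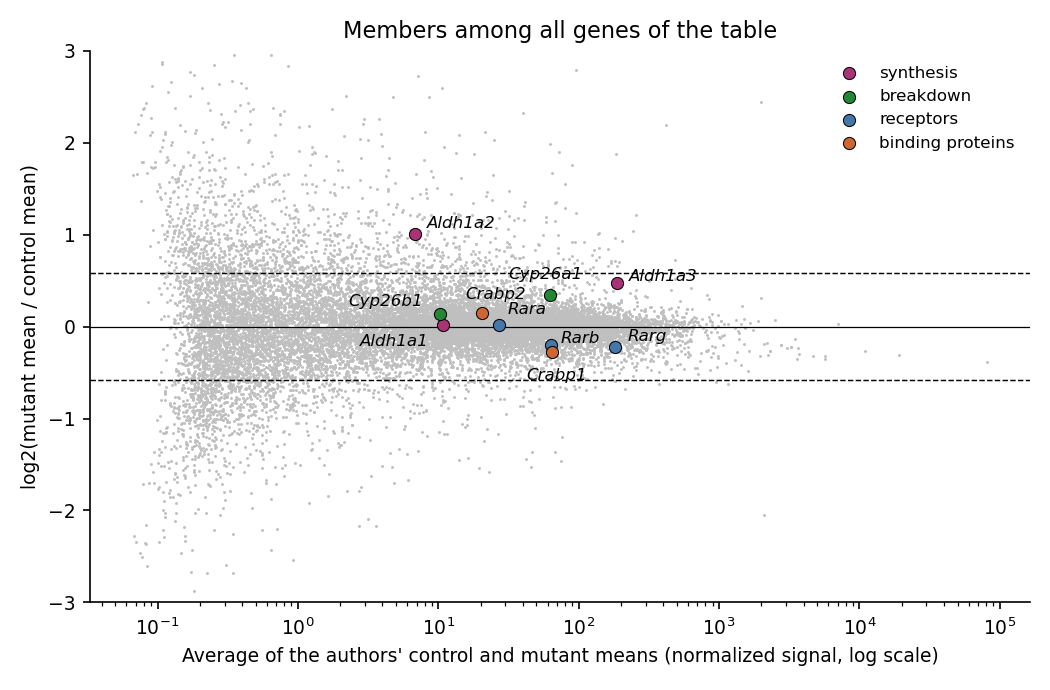
Log2 ratio of the mutant to the control mean against the average of both means on a log axis, with 1 grey point per gene and the 10 members coloured by role; dashed lines mark 1.5-fold in both directions, and 54 genes beyond 3 on the log2 scale are not drawn. The members lie within the cloud of genes of their level, and *Aldh1a2* is the one beyond a dashed line.

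Scaled by exon length, *Crabp1* was the most abundant member in both groups, at 87.7 signal units per kilobase in the controls and 72.2 in the mutants. In the controls it was followed by *Rarg* at 46.0, *Aldh1a3* at 33.8, *Cyp26a1* at 27.8, *Crabp2* at 14.8, *Rarb* at 12.8 and *Rara* at 6.19. *Aldh1a1*, *Aldh1a2* and *Cyp26b1* closed the order at 2.19, 1.99 and 1.83. In the mutants *Aldh1a3* at 47.1 stood before *Rarg* at 39.4, and *Aldh1a2* at 3.99 stood before *Aldh1a1* at 2.21, while the other members kept their places. The change between *Aldh1a2* and *Aldh1a1* depends on the length used. Divided by the longest transcript, *Aldh1a1* at 4.63 stayed before *Aldh1a2* at 3.99 in the mutants. With no spread between mice, it cannot be said which neighbours in these orders differ.

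The wider retinoid pathway gave 35 further genes in the table of 43 listed. Of these, 12 were higher and 23 lower in the mutants, with a median log2 ratio of -0.06, and 2 were past 1.5-fold on the higher side and 1 on the lower. Of all genes, 50.5% were higher, with a median of 0.0022, and 7.37% were past 1.5-fold on the higher side and 5.8% on the lower. With an equal total signal per library the split was 18 higher and 17 lower and the median 0.0047. Under that scaling 63.7% of all genes were higher, with a median of 0.063. The 35 genes thus lay below all genes both ways, a difference that was not tested. Their sign against 0 depends on the scaling, so no direction is given for the pathway as a whole. *Rdh10*, which oxidizes retinol to retinal ahead of the ALDH1A enzymes, was the most abundant retinol or retinal oxidoreductase, at 314.6 in control and 245.4 in mutant tissue, a ratio of 0.780. *Dhrs3*, which runs the reverse step from retinal to retinol, was at 49.9 and 44.6. In this class of 11 genes, 8 were lower and 3 higher, with a median of -0.10, and 6 were lower and 5 higher under that scaling. *Adh7* was the class member past 1.5-fold, at 2.10 in control and 0.977 in mutant tissue, and 5.8% of all genes were lower by that fold.

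For uptake and storage of retinol, 4 of 7 listed genes were in the table and 3 of them were lower in the mutants. *Stra6*, the membrane receptor for retinol-loaded plasma protein, had means of 8.73 and 6.77. *Lrat*, which stores retinol as esters, was past 1.5-fold on the higher side, but its means of 0.121 and 0.213 rest on about 11 and 25 inferred reads.

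Among the other enzymes and carriers, *Fabp5*, which carries retinoic acid and other lipids and is abundant in epithelia, had means of 27.3 and 37.1, and *Cyp26c1* was at 11.4 and 12.6. *Rbp7* was past 1.5-fold, at 0.859 and 1.33. Of the 4 genes in the list of RXR and PPARδ receptors, 2 were higher and 2 lower. *Rxra*, the most abundant of them, had means of 93.5 and 97.4, and *Rxrb* 38.7 and 35.2. Further from a ratio of 1 were *Rxrg*, at 1.83 and 2.34, and *Ppard*, at 31.2 and 26.1. All 13 listed coregulators were in the table, 10 of them lower and 6 with an equal total signal, with log2 ratios from -0.20 for *Nrip1* to 0.08 for *Sin3a*. The most abundant, the corepressor *Ncor1*, was at 255.8 and 259.3. The median of the coregulators, -0.06, turned to 0.0047 when libraries were scaled to an equal total signal. The same scaling moved the median of all genes from 0.0022 to 0.063. The list thus lay below all genes both ways, a difference that was not tested. Its sign against 0 depends on the scaling, so no direction is given for the coregulators.

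**Figure D3:**
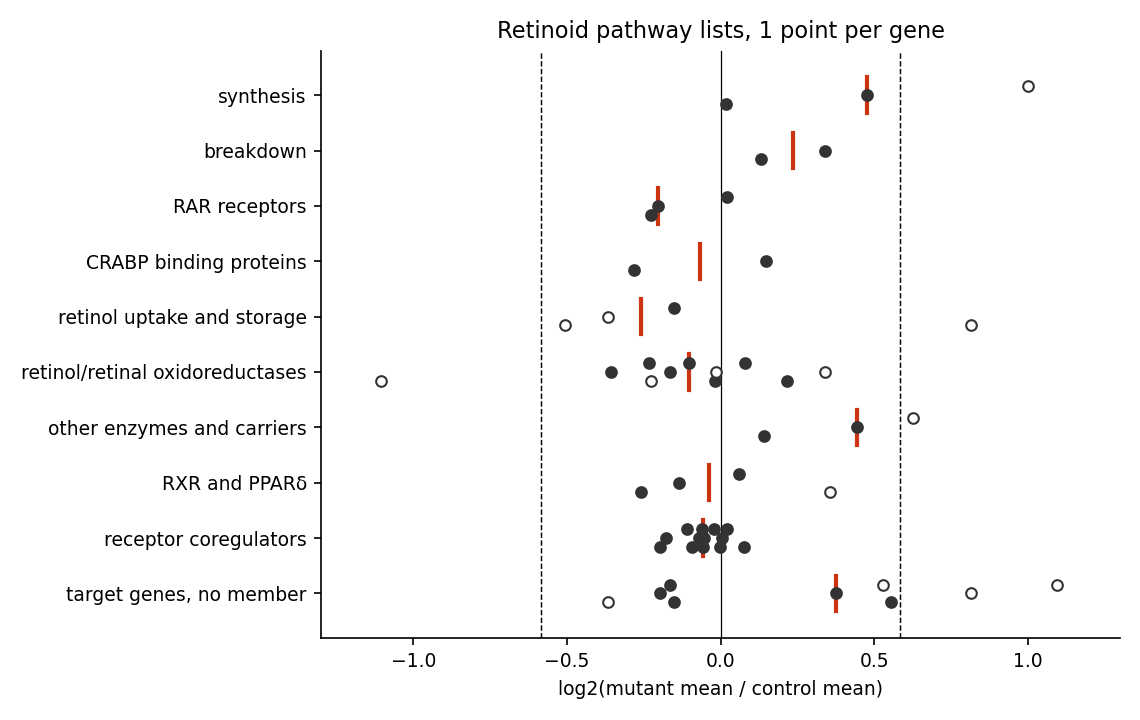
Log2 ratio of the mutant to the control mean for each gene of 10 retinoid lists, filled where the average of both means is at least 10 and open below that; red bars are list medians and dashed lines mark 1.5-fold. Genes beyond the dashed lines are open points, that is, genes of low signal.

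Targets of retinoic acid that are not among the members did not share a direction. Of 13 listed, 9 were in the table, 5 higher and 4 lower, with a median of 0.38. *Meis1*, a homeobox gene of proximal limb and other domains, had means of 2.14 and 4.57 and was past 1.5-fold together with *Lrat*. *Rarres2*, which encodes the chemoattractant chemerin, was at 11.5 and 16.9, and the transglutaminase *Tgm2* at 23.5 and 30.5. Among the lower genes were *Nrip1*, *Dhrs3* and *Stra6*, with log2 ratios of -0.20, -0.16 and -0.37.

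Markers of other cell types differed between the groups in the same libraries. The epithelial list, with *Krt14* and *Amelx* among its 11 genes, had a higher mutant mean for each gene and a median of 1.22. Its summed signal was 1658 in the controls and 10431 in the mutants. Most of that sum came from *Amelx*, *Ambn* and *Enam*, at 361.9, 617.4 and 135.8 in the controls. These were at 3946, 3360 and 1983 in the mutants. *Krt14* was at 90.4 and 182.3, a ratio of 2.02. Of 10 markers of dental mesenchyme, 8 were lower, with a median of -0.22 and sums of 27923 and 22681. No marker of either list was at the lowest mean of its group, and the lowest of them, *Sfn* and *Lhx6*, had control means of 11.9 and 13.3. *Gli1*, whose locus carries the recombinase, was at 106.4 in the controls and 46.1 in the mutants. *Rarb*, *Rarg* and *Crabp1* had log2 ratios of -0.20, -0.23 and -0.28, beside the mesenchymal median of -0.22. All 7 members with a higher mutant mean lay between the median of all genes and the epithelial median. Most higher genes do: 9731 of 19270 genes were higher, and the gene at the epithelial median ranked 395 by log2 ratio. The placement therefore does not set the members apart. *Aldh1a3* was at 0.48 and *Cyp26a1* at 0.34, and *Aldh1a2*, at 1.00, lay closest to the epithelial median. Within the lists, log2 ratios ranged from 0.78 to 3.87 for epithelium and from -1.21 to 0.24 for mesenchyme. The lower end for mesenchyme is *Gli1*, and the next lowest marker of that list was at -0.31. The part of cell composition in these ratios was not tested.

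**Figure D4:**
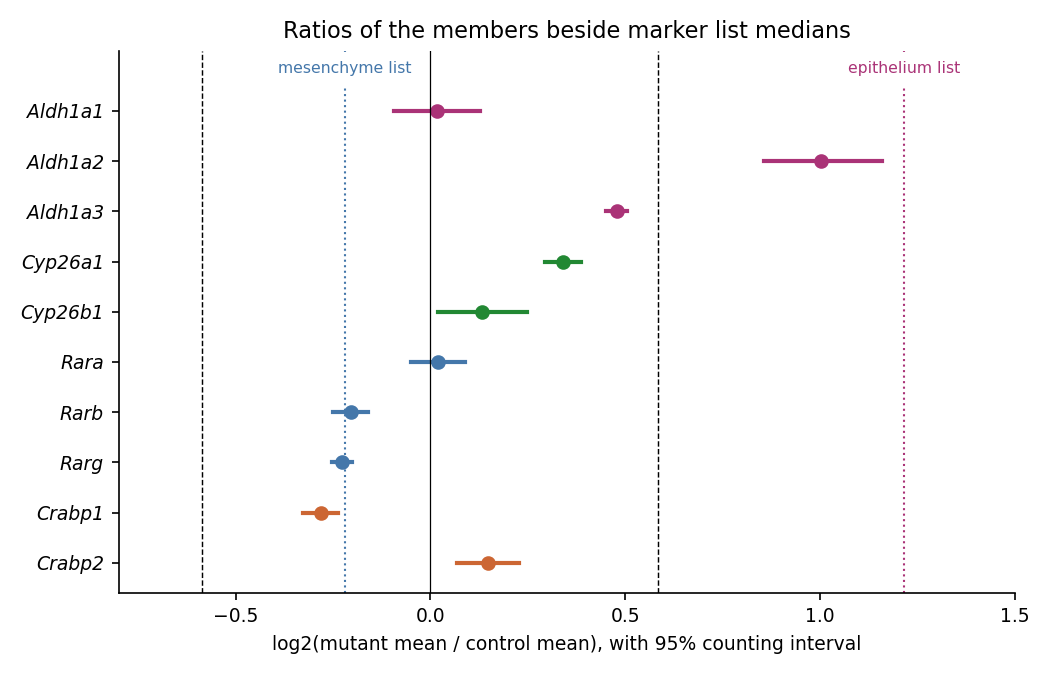
Log2 ratio of the mutant to the control mean for each member with its 95% counting interval, which leaves out the spread between mice; dashed lines mark 1.5-fold, and dotted lines the medians of the marker lists of dental mesenchyme at -0.22 and dental epithelium at 1.22. *Rarb* and *Rarg* sit next to the mesenchymal line, and *Aldh1a2* is the member nearest to the epithelial line.

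Of the remaining lists, the macrophage markers were higher in 6 of 6, with a median of 0.24, and the 5 erythroid markers were all lower, with a median of -1.53 and sums of 63.7 in control and 22.1 in mutant tissue. Odontoblast markers were lower in 5 of 6, with a median of -0.30. The endothelial, perivascular and glial medians were 0.06, 0.0019 and -0.09. Skeletal muscle markers summed to 6.66 in the controls and 6.17 in the mutants, with a median of -0.31.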

How the data were processed

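Bulk RNA-seq of the proximal incisor from 3 control and 3 *Arid1b* mutant samples was used as deposited. Reads were trimmed and mapped to mm10, and the authors used Partek Flow for the comparison. TopHat2 2.0.8 is named in the submitters' processing notes. How reads were counted, the annotation and the normalization are not given in the sources used here. The deposited table gives for each gene the authors' mean normalized signal of each group. It also holds 4 columns of the authors' own comparison (p-values, FDR, ratio and fold change), and a second table holds rows of the first chosen by them. None of these was used. Another table summarizes the normalized signal of each library.

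The mean over genes of each group's column equalled the average of its library means, so the group values are arithmetic means. Ratios are the mutant mean over the control mean, with no pseudocount. The value of no read was taken as each library's minimum, and that of n reads as n plus 1 times it. Under this inference, of the means no more than 5 reads above the lowest, 48 of 79 in the controls and 25 of 64 in the mutants were whole reads to within 0.1% of a read, so reads may have been split between genes and read numbers are approximate. Intervals cover counting error only and assume an equal level in the libraries of a group. The design had no test, since values per gene and mouse were not analysed here. Ratios and intervals were tested on simulated whole reads with counting error only, drawn under the same inference. The simulation held no split reads and no spread between mice, so it cannot show how the intervals behave with either. Coordinates and exon lengths are from GENCODE vM21 (GRCm38), in which 18840 of 19270 gene names matched 1 gene. Shared 50-base stretches were counted in its transcripts, and promoter windows are from RefSeq. The named genes are the members, the most abundant and the past-1.5-fold genes of each pathway list, *Arid1b*, and markers that bear on a member; a gene in 2 lists counts under both. *Dhrs3*, *Stra6*, *Cyp26c1*, *Fabp5*, *Rxrb*, *Rxrg*, *Ppard*, *Sin3a*, *Rarres2*, *Tgm2*, *Top2b*, *Aldh1a7*, *Ambn* and *Enam* were named after their values were seen. 1 gene that this rule selects is not reported here. The members and lists were chosen with earlier results of these data known. Protein comparison within families, and the study's single-cell and chromatin data, were not analysed here. Software was matplotlib 3.10.9, scipy 1.17.1, pandas 2.3.3 and numpy 2.4.6 under Python 3.11.15.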

Additional observations from a re-analysis of the deposited data

How the results depend on the processing

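The count of 1 member past 1.5-fold was also 1 with a fold of 2, with an average of at least 1, with a pseudocount of 1, with total signal scaling and with centring on the median of all genes. It was 3 with a threshold 25% above a ratio of 1, adding *Aldh1a3* and *Cyp26a1*, and 0 with an average of at least 10, which leaves out *Aldh1a2*. Scaling to an equal total signal adds 0.06 to each log2 ratio and turned no member's sign. Centring on the median of the dental mesenchyme list, an alternative chosen after seeing the data, adds 0.22: the median of the members became 0.30, 2 members were past 1.5-fold, *Rarb* turned from -0.20 to 0.015, *Rarg* was -0.0069 and *Crabp1* -0.06. By construction this sets the mesenchymal markers as the reference. The median of the RXR and PPARδ list was -0.04, and 0.0044 as a mean, 0.022 with total signal scaling and -0.14 among genes with an average of at least 10. The medians of the coregulators and of the 35 other pathway genes together both turned from -0.06 to 0.0047 with total signal scaling. The scaling of the 35 genes together was tried after seeing the data. The same scaling moved the median of all genes from 0.0022 to 0.063, so both lists stayed below it. The cause of the lower list medians was not tested. With the longest transcript in place of all exons, 6 of 10 members kept their place in the control order per kilobase. With spacers of 2 and 1 bases, 0 windows of members held the repeat, against 2 with 5 bases. No paired analysis was possible because the files hold group means, for which no replicate could be left out either.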
